A study of Mus musculus with 4 samples.

Results

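Intergenic DHX9 peaks are the binding regions of the RNA helicase DHX9 whose midpoint lay outside every annotated gene of the mouse genome. They were taken from the list of 59563 peaks that the authors called in mouse embryonic stem (ES) cells. A peak on chromosomes 1 to 19 or X was a member when its midpoint lay in no RefSeq gene body on either strand (mm10; gene table of assembly GRCm38.p6). This held for 2770 of 59425 peaks (4.66%, 95% Wilson interval 4.49 to 4.83%), of which 67 still had some bases in a gene body. Neighbouring members on 1 strand were then joined into a run wherever the gap between them was 10 kb or less, which gave 993 runs.

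The peaks came from FLASH, a form of CLIP-seq in which ultraviolet light crosslinks RNA to protein, an antibody pulls the protein down and the attached RNA fragments are sequenced. There were 4 samples: 2 pulldowns with a rabbit DHX9 antibody (labelled DHX9-Rb, replicates A and B) and 2 with rabbit IgG as the control (IgG-Rb, replicates A and B). All 4 came from WT26, a feeder-independent male ES cell line of strain C57BL/6x129sV grown with leukemia inhibitory factor, so that the data describe 1 cell line. DHX9 and IgG material carried different adapter tags and was mixed before the RNA was isolated, and random tags allowed PCR duplicates to be merged. The deposited list has positions and strands alone: it holds no peak height or significance, and no separate values for a replicate or for IgG. No value can therefore be given per sample, depth is unknown, and the intervals below cover counting error within 1 list and not the spread between pulldowns. Of 8 marker genes of ES cells, 7 held peaks and Dppa5a held 0, while 0 of 6 fibroblast markers (feeder cells) and 0 of 6 markers of differentiated lineages did. Over all genes, 11.2% held a peak on their own strand, so that counts of 0 in lists of 6 say little.

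DHX9, also called RNA helicase A, opens RNA duplexes and binds double-stranded RNA. RNA outside annotated genes can be the tail of a transcript that RNA polymerase II carries past the end of its gene, the long precursor from which microRNAs are cut, a short transcript that leaves a promoter in the opposite direction, or a noncoding RNA that the annotation does not hold. A peak needs transcribed RNA, and the list gives no expression level, so a peak reports bound RNA and its absence cannot be read as absence of binding.

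Among the members were stretches that ran up to and over microRNA genes, whose precursors fold into hairpins. The mature microRNAs cut from 6 of these loci are given 5′ to 3′ as RefSeq records them on GRCm38.p6, with the seed, bases 2 to 8, in capitals; they are shown because their seeds group the loci. Members of the Mir290a to Mir295 cluster on chromosome 7, which is active in ES cells, of the Mir17 cluster on chromosome 14 and of the Mir363 to Mir106a cluster on chromosome X that share or nearly share a seed come first, with miR-363-3p, whose seed differs.
miR-290a-3p: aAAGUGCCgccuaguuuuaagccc
miR-291a-3p: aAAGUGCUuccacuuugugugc
miR-294-3p: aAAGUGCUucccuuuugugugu
miR-295-3p: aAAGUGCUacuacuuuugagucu
miR-17-5p: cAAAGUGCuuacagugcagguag
miR-20a-5p: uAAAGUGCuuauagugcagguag
miR-20b-5p: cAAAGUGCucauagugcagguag
miR-106a-5p: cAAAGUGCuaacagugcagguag
miR-363-3p: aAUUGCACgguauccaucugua
The seed AAGUGCU was shared by miR-291a-3p, miR-294-3p and miR-295-3p, and AAAGUGC by miR-17-5p, miR-20a-5p, miR-20b-5p and miR-106a-5p. The other 3 loci, on chromosomes 4, 2 and 8, had other seeds.
miR-34a-5p: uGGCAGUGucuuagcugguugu
miR-298-5p: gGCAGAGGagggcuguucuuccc
miR-296-5p: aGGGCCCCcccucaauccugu
miR-23a-3p: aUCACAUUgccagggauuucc
miR-27a-3p: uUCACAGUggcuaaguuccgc
miR-24-3p: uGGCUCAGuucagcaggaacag

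MicroRNA genes outside other gene bodies had a DHX9 run on their own strand more often than on the opposite strand. Of 243 such genes with a known strand, 23 (9.47%, 95% interval 6.39 to 13.8%) lay within 2 kb of a same-strand run, in 12 runs, and 3 (1.23%, 0.421 to 3.57%) within 2 kb of an opposite-strand run. Over all 1072 microRNA genes with a strand the counts were 33 on the same strand and 7 on the opposite strand. Of these 7, Mir290b, Mir292b and Mir3074-2 are annotated on the other strand of clusters that had a same-strand run. Genes of 1 cluster share a run, so these genes are not independent of each other. The share within 2 kb was not computed for other genes, so whether microRNA genes stand out at that limit is not shown. Within 50 kb, on either strand, an intergenic peak lay near 11.3% of all microRNA genes. This compares with 11.3% of protein-coding genes and 8.69% of all genes. The 13 same-strand runs held 84 peaks, 11 of the 13 began before the first hairpin in their reading direction, and 60 of the 84 peaks lay wholly before it. A peak centred on a hairpin or in an annotated host gene is no member, so the side of these intergenic peaks is partly fixed by the choice of members.

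At Mir34a, a microRNA gene activated by p53, 19 peaks on the plus strand of chromosome 4 (150061194 to 150071782) began 7260 bases before the hairpin, with 10 peaks wholly before it and 8 past it. No bound gene lay near: the nearest, Eno1, was 164926 bases away. At Mir23a, Mir27a and Mir24-2 on chromosome 8 (84201238 to 84208861, plus strand), 12 of 14 peaks lay before the first hairpin and the run began 7280 bases before it. At Mir296 and Mir298, beside the imprinted Gnas locus, 21 of 22 peaks lay before the first hairpin. At Mir181d and Mir181c, 4 peaks were spread over 12515 bases, the earliest 10175 bases before the first hairpin. The Mir17 cluster had 6 intergenic peaks that began 2707 bases before Mir17, and 7 gene-body peaks followed, of which 1 covered Mir18, Mir19a and Mir20a whole. The Mir290a run had 2 peaks and began 791 bases before Mir290a. It stopped there as a run because the annotated gene D7Ertd143e begins beside it, and 5 gene-body peaks followed. Those at 219 to 946 and 1585 to 2306 bases past the start of Mir290a covered the later hairpins. The others lay between hairpins or past the last. The run at the Mir363 to Mir106a cluster had 3 peaks over 1181 bases. Those at 63 to 448 and 530 to 683 bases past the start of the first hairpin lay among the hairpins. The peak at 1133 to 1243 bases lay past the last hairpin. At the other loci named here the peaks numbered from 2 to 22, and the run began on the 5′ side of the first hairpin. A peak of the run lay over the start of that hairpin at each of them except Mir181d and Mir181c. There, 2 of the 4 peaks lay before the first hairpin and neither reached it.

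**Figure D1:**
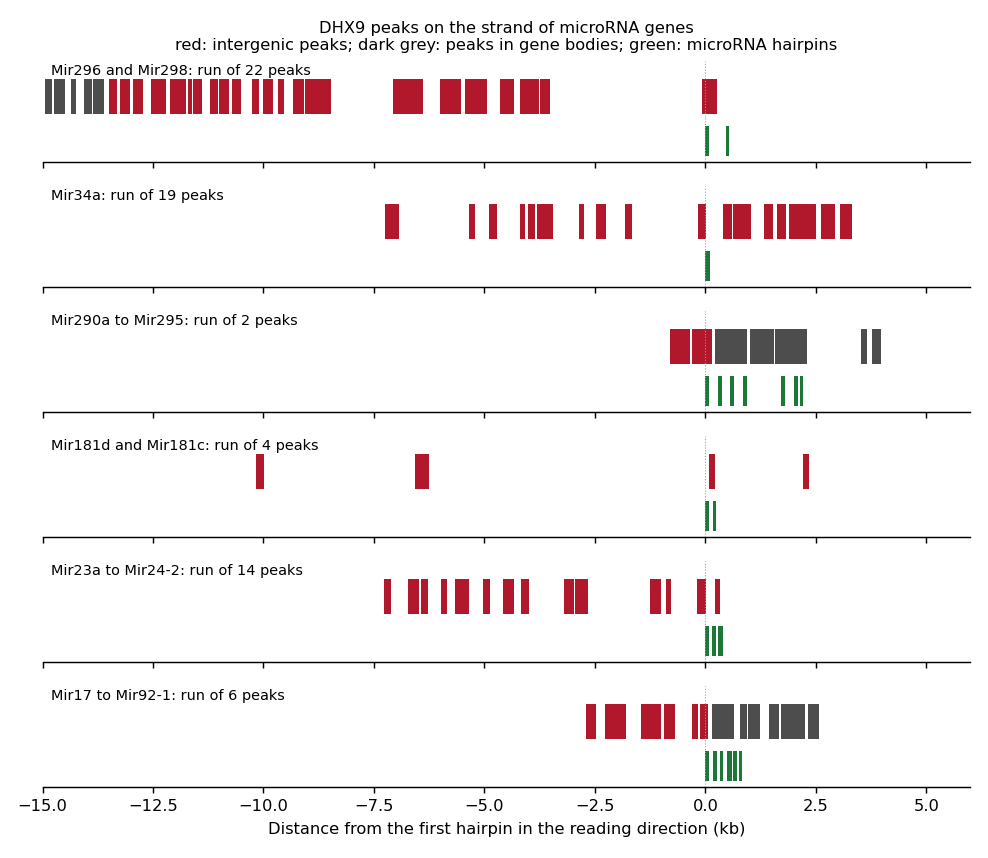
DHX9 peaks on the strand of 6 microRNA loci, by distance in kb from the first hairpin in the reading direction; red boxes are intergenic peaks, dark grey boxes peaks in gene bodies and green boxes hairpins. Most red boxes stand left of 0, with 21 of 22 peaks before the first hairpin at Mir296 and Mir298 and 12 of 14 at Mir23a. At Mir34a 10 of 19 lay before it and at Mir181d and Mir181c 2 of 4. The Mir363 to Mir106a cluster, with 0 of 3, is not drawn. The side is partly fixed by the choice of members.

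Intergenic peaks also reached promoters. The window of 250 bases before a start site was overlapped by an intergenic peak in 22 of 32851 windows of the RefSeq table, on the same strand as the gene in 18 and on the opposite strand in 4. The overlapped windows held a median of 17 CG dinucleotides, against a median of 17 in the 5199 windows of bound genes and 6 in all windows. The windows of Top1, Zfp281 and D7Ertd143e are printed on GRCm38.p6 in the gene's direction, with the bases that the peak covers in capitals, because each shows the peak at a start site named in the results.
Top1, chr2:160645647-160645896, plus strand: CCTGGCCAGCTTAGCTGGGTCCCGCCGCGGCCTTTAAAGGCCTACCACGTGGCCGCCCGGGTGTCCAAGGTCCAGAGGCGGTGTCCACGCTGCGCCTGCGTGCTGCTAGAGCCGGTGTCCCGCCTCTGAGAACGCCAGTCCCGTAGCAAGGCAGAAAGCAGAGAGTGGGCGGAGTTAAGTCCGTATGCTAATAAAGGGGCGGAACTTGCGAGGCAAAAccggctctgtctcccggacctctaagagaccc
Zfp281, chr1:136624651-136624900, plus strand: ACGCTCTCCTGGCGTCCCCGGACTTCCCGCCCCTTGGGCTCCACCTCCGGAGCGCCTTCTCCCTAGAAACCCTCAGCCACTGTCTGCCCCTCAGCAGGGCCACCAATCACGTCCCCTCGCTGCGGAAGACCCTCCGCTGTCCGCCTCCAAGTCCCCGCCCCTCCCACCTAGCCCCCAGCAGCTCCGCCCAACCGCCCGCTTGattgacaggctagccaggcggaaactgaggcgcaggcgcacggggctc
D7Ertd143e, chr7:3218534-3218783, plus strand: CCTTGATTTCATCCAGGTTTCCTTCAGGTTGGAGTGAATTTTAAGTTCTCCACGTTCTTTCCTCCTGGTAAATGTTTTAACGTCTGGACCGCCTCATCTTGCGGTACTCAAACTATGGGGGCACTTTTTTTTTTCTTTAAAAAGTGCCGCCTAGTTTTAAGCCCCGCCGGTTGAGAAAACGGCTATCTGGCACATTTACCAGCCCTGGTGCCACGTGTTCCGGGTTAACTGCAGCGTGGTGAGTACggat
At Top1, the gene of DNA topoisomerase I, the peak was on the opposite strand and covered 218 of the 250 bases. It began a run of 12 peaks that read away from the gene for 6706 bases; the gene body held 7 further peaks of that strand beside 13 on the gene's own strand. At Zfp281, a zinc-finger factor of ES cells, a plus-strand peak covered 202 bases, and at D7Ertd143e the peak covered 246 bases, which include the Mir290a hairpin.

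Intergenic peaks had a lower median width than peaks in genes and a larger median gap between them. Their width had a median of 179 bases (quartiles 133 and 252, range 18 to 1001), against 197 bases (147 and 268) for 55122 peaks in protein-coding gene bodies and 194 bases (143 and 271) for 1175 peaks in long noncoding RNA (lncRNA) genes alone. The 2770 members covered 564 kb in all, 1474 of them plus-strand and 1296 minus-strand peaks. The gap to the nearest peak on the same strand, in a gene or not, had a median of 237 bases for intergenic peaks, 142 in protein-coding genes and 163 in lncRNA genes alone. A gap of more than 10 kb was found for 18.2% of intergenic peaks (503), against 4.04% in protein-coding genes and 10.04% in lncRNA genes alone. A peak on the opposite strand within 1 kb was found for 4.44% of intergenic peaks (123), against 0.581% and 2.38% in the same classes. No test between these classes was made, since peaks of 1 pooled list are not replicates.

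Most intergenic peaks lay in runs of at least 2, while most runs consisted of 1 peak. Of the 993 runs, 657 were 1 peak, 216 had 2 to 4, 68 had 5 to 9 and 52 had 10 or more. Of the 657, 504 had no same-strand peak in a gene body within 10 kb, and the rest lay nearer to such a peak. The 336 runs of at least 2 peaks (33.8%, 31.0 to 36.8%) held 2113 peaks, or 76.3% of the members, and the 52 runs of 10 or more held 1086 (39.2%). The 10 runs with the most peaks held 517 (18.7%). Runs of at least 2 peaks had a median length of 2444.5 bases (quartiles 1135 and 5104.75), 34 were longer than 10 kb and 9 longer than 20 kb. In the 120 runs of at least 5 peaks the median density was 1.80 peaks per kb, and peaks covered a median of 40.6% of the run. The 10 kb limit cut through few gaps: 25 gaps of 5 to 10 kb lay inside runs and 31 of 10 to 20 kb between runs, of 2730 gaps. The widest gaps kept inside a run were 9654, 9734 and 9935 bases, and the narrowest that parted runs were 10348, 10449 and 10478 bases.

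Width went with run size. Peaks had a median width of 133 bases in runs of 1 peak, 171 in runs of 2 to 4, 190 in runs of 5 to 9 and 216 in runs of 10 or more. Peaks under 50 bases numbered 47 among the 657 runs of 1 peak, 8 among the 577 peaks of runs of 2 to 4, and 0 in longer runs. Among runs of 1 peak, the median was 151 bases within 1 kb of a gene body (171 peaks), 135 at 1 to 10 kb (325) and 119 beyond 10 kb (161). Peaks in gene bodies with no same-strand peak within 10 kb had a median of 153 bases (2447 peaks), so narrow isolated peaks were also found inside genes.

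**Figure D2:**
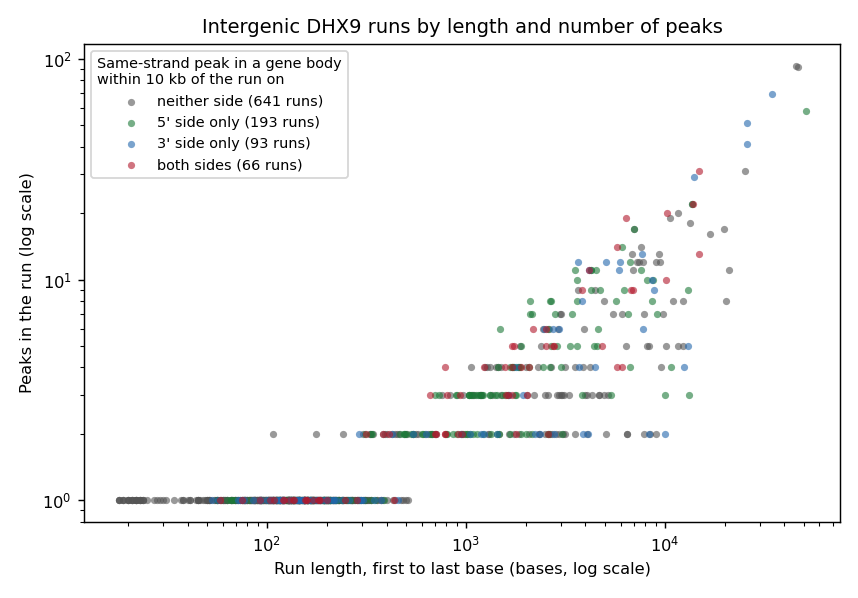
Length in bases and number of peaks of the 993 intergenic runs, both on log scales, each point being a run coloured by whether a same-strand peak in a gene body lay within 10 kb. The 641 runs with no such peak (grey) include 504 isolated peaks at the bottom left and 20 runs of 10 or more peaks, among them the runs of 93 and 92 peaks at the top.

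The runs with the most peaks were long, dense stretches on 1 strand, and several went straight into or out of a gene. The run with the most peaks lay on the minus strand of chromosome 5 (33489545 to 33535348), with 93 peaks over 45804 bases, a median gap of 177.5 bases and no gap above 1557. Its nearest bound gene, Fam53a, lay 65003 bases away and held 1 peak, and no peak in a gene body lay within 10 kb on either side. A run of 92 peaks over 46701 bases of the plus strand of chromosome 1 (136567441 to 136614141) ended 10.8 kb before Zfp281. A gap of 10449 bases parted it from the next run, of 4 peaks. The earliest peak of that run overlaps the Zfp281 promoter printed above, and its other peaks lay past the gene's 3′ edge. Zfp281 itself held 3 peaks. The runs of 93 and 92 peaks, with the 31 peaks on the plus strand of chromosome 2 (169006233 to 169031599), were not joined to gene-body peaks within 10 kb. Long runs could also be sparse: 11 peaks were spread over 21037 bases around the lncRNA gene B130006D01Rik on chromosome 11, 8 over 20321 bases near Platr4, an lncRNA gene of chromosome 3, and 17 over 19940 bases near the lncRNA gene Gm42306 on chromosome 4.

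Others were followed by gene-body peaks on the same strand. On the minus strand of chromosome 16, 69 peaks (8757520 to 8792130) ended 453 bases before Usp7, which encodes a deubiquitinase, and 61 peaks followed in Usp7. On chromosome 18, 29 peaks (65566138 to 65580178) ended 52 bases before the zinc-finger gene Zfp532, which held 118 and whose strand was read from those peaks. On chromosome 14, 31 peaks (21483841 to 21498638) ended 578 bases before the histone acetyltransferase gene Kat6b. There, 163 peaks followed in steps of 10 kb or less. On chromosome 17, 41 peaks (66457972 to 66484017) ended 8166 bases before Mtcl1, a gene of microtubule organisation, in which 2 peaks followed after a gap of 9176 bases. In these 4 the intergenic run lay on the 5′ side of the annotated gene. On the minus strand of chromosome 9, 51 peaks (40213947 to 40239938) were followed after 703 bases by 30 minus-strand peaks inside Zfp202, a zinc-finger gene of the plus strand, so that these peaks lay antisense to it.

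**Figure D3:**
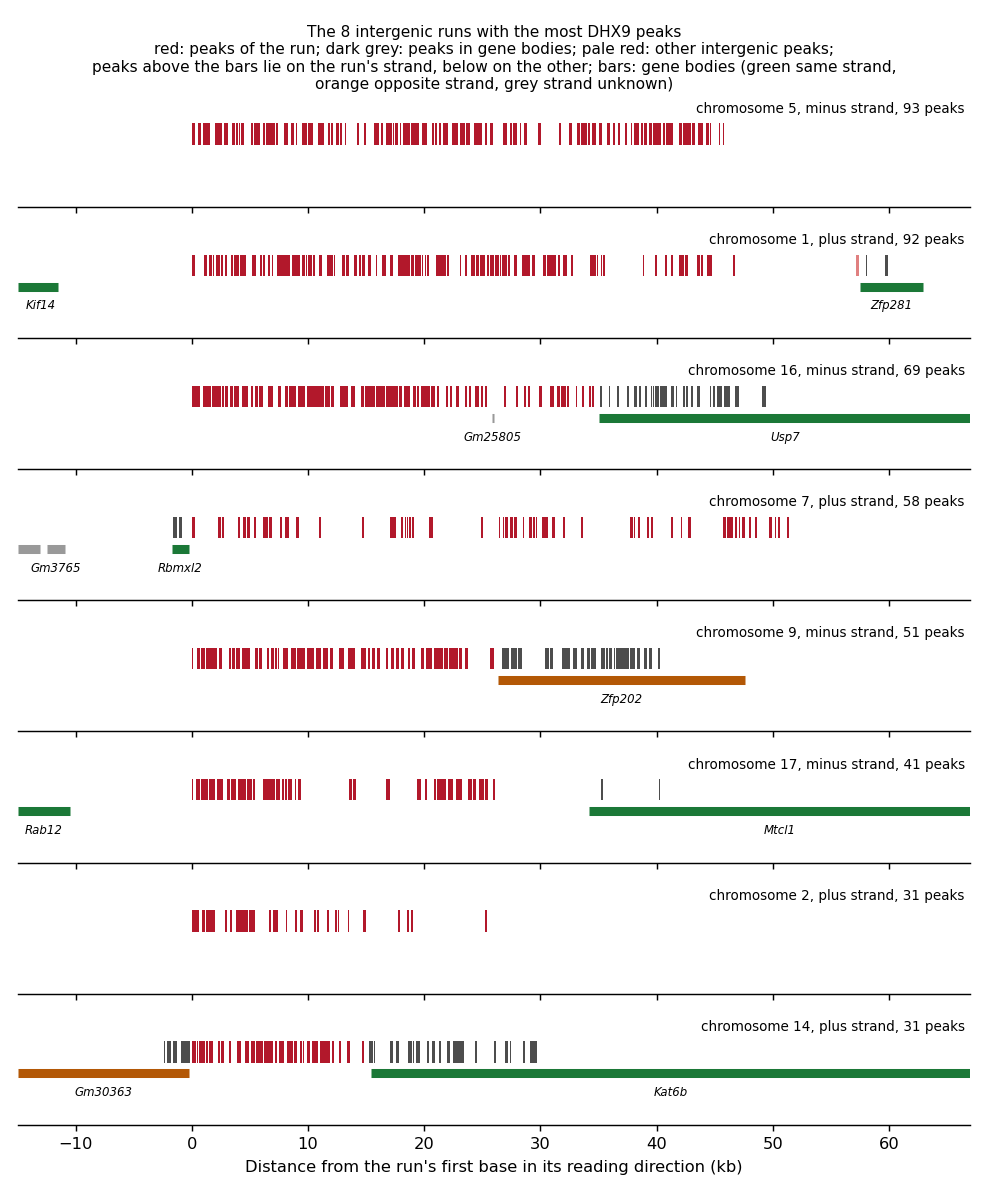
Peaks of the 8 runs with the most peaks, by distance in kb from the run's first base in its reading direction; red marks are the run's peaks, dark grey marks peaks in gene bodies, pale red other intergenic peaks, and bars are gene bodies. The runs before Usp7, Kat6b and beside Zfp202 pass into grey gene-body peaks, and the run after Rbmxl2 starts 260 bases past the gene.

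A bound gene was taken as a gene with at least 1 peak on its own strand, which held for 5531 of 49554 genes (11.2%). The nearest bound gene lay a median of 9019 bases from a run (quartiles 1021 and 61328), within 10 kb for 510 runs (51.4%) and beyond 50 kb for 276 runs (27.8%), which held 636 peaks. For 555 runs an unbound gene lay nearer than the bound one. A run was said to read on from a gene when its nearest bound gene was on the same strand and the run lay past the gene's 3′ edge by at most 10 kb. This held for 247 runs (24.9%, 22.3 to 27.7%) and 804 peaks (29.0%), each run from another gene. It held for 131 of 336 runs of at least 2 peaks (39.0%) and for 116 of 657 runs of 1 peak (17.7%). Runs with an unbound gene lying between were not left out. Past Zbed5, for instance, 30 bases were free before another gene, and the run began 7387 bases past the edge.

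Past the 3′ edge on the same strand was the most frequent of the placements. Of the 510 runs within 10 kb of a bound gene, 247 (48.4%, 44.1 to 52.8%) were there, 91 (17.8%, 14.8 to 21.4%) lay before the 5′ edge on the same strand, 88 (17.3%, 14.2 to 20.8%) before the 5′ edge on the opposite strand and 50 (9.80%, 7.52 to 12.7%) past the 3′ edge on the opposite strand. The remaining 34 overlapped the gene. Where the gene's strand came from the RefSeq sequence tables, the reading-on placement held for 194 of 383 runs (50.7%), and where it was read from the gene's own peaks, for 53 of 127 (41.7%).

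Peaks of the same list were also counted beside bound genes chosen without regard to runs, which is a recount and not separate evidence. In 680 bound genes with no other gene within 10 kb on either side, 44 (6.47%, 4.86 to 8.58%) had a same-strand peak within 10 kb past the 3′ edge, with 162 peaks in all. On the opposite strand past the 3′ edge 9 genes had 25 peaks, on the same strand before the 5′ edge 23 genes had 49, and on the opposite strand before it 21 genes had 36. Per kb and 1000 genes, same-strand peaks past the 3′ edge numbered 47.1 in the first 0.5 kb, 58.8 from 0.5 to 1 kb, 50 from 1 to 2 kb, 29.9 from 2 to 5 kb and 9.12 from 5 to 10 kb. The signal past the 3′ edge was thus highest within 2 kb and lowest in the farthest window.

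**Figure D4:**
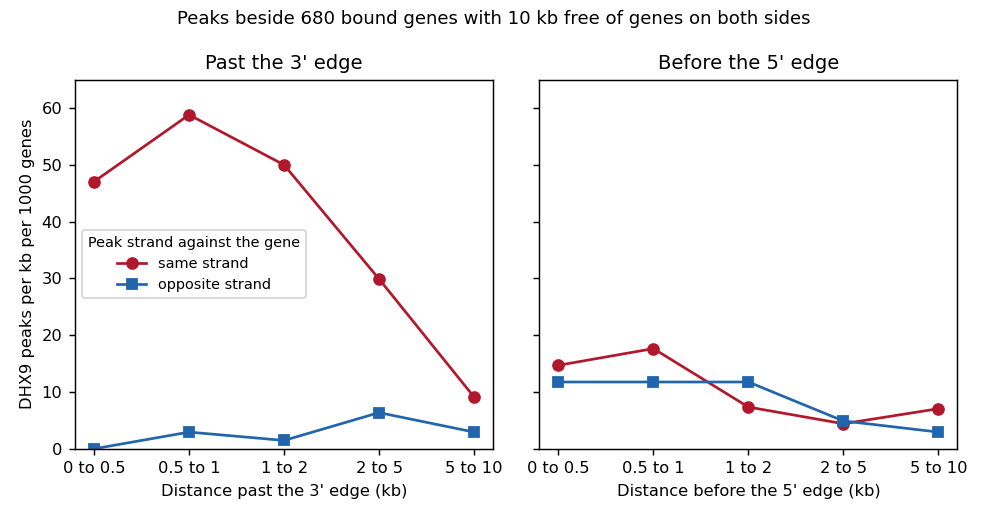
DHX9 peaks per kb and 1000 genes, by distance in kb, beside 680 bound genes that have 10 kb free of other genes on both sides. Red circles are peaks on the gene's strand and blue squares on the opposite strand; past the 3′ edge the same-strand values run from 58.8 to 9.12, above the opposite strand in every window.

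The share of genes with a run reading on was higher among genes with more peaks in their body, over the groups of up to 49 peaks. Over all bound genes it was 4.47%. Among bound genes with 10 kb free past the 3′ edge it was 2.50% (11 of 440) for genes with 1 peak, 4.43% (18 of 406) for 2 to 4, 5.76% (16 of 278) for 5 to 9, 12.9% (28 of 217) for 10 to 19, 12.9% (25 of 194) for 20 to 49 and 7.79% (6 of 77; 3.62 to 16.0%) for 50 or more. The interval of the last group overlaps those of the others, so its order among them is not settled.

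**Figure D5:**
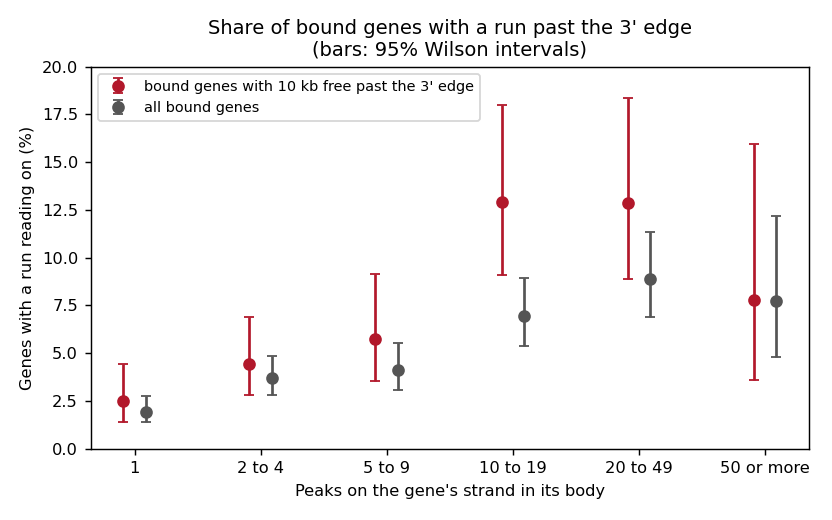
Percent of bound genes with a run reading on past the 3′ edge, by the number of peaks on the gene's strand in its body; bars are 95% Wilson intervals, red for genes with 10 kb free past the edge and grey for all bound genes. The red share is 2.50% at 1 peak and 12.9% at 10 to 19 peaks.

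The runs that read on were mostly short. Their first peak lay a median of 837 bases past the gene (quartiles 277 and 1895), they held a median of 2 peaks, and their far end lay a median of 2183 bases past the edge. It lay 5 kb or more past the edge for 50 genes and 10 kb or more for 11. Of the 247 genes, 219 were protein-coding, and for 214 runs a same-strand peak inside a gene lay within 10 kb on the run's 5′ side, so that peaks followed on without a longer break. For 37 genes the run held more peaks than the gene.

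Rbmxl2, a gene for an RNA-binding protein of germ cells that consists of 1.47 kb on chromosome 7 (107209445 to 107210916, plus strand), had the longest such run. It held 2 peaks and was followed by 58 over 51391 bases, with peaks up to 51650 bases past the edge and no gap above 4119 bases. Gnasas1, the antisense RNA of the imprinted Gnas locus, held 32 peaks and was followed by 22, those of the Mir296 and Mir298 run. Katnal2, a katanin-like gene on chromosome 18, held 11 plus-strand peaks and was followed on that strand by 22. The next plus-strand gene-body peak lay 1960 bases after those 22. Rpph1, the RNA subunit of RNase P, held 1 and was followed by 19 that began 2460 bases past it. Tsacc, a co-chaperone gene, held 15 and was followed by 17 that began 6065 bases past it. The strands of Gnasas1, Katnal2 and Rpph1 were read from their own peaks, so for these genes the placement rests on the peaks alone. If those peaks lay antisense to the annotated gene, the run would lie before its 5′ edge and would not read on from it.

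Genes of known roles in ES cells and RNA metabolism stood in the same ranking, and those named here were chosen after their values were seen. Mcl1, an anti-apoptotic gene, held 9 peaks and was followed by 14 that began 162 bases past its edge. Zfp42 (Rex1), a pluripotency marker, held 24 and was followed by 11 from 56 bases past the edge. L1td1, which encodes an RNA-binding protein of pluripotent cells, held 23 and was followed by 11. Nop58, which encodes a protein of the box C/D snoRNA complexes, held 64 and was followed by 10 that reached 8421 bases past the edge. Genes with the same number of peaks past the edge could differ in the number inside: Trir held 3 and was followed by 11, and Cbx1, a heterochromatin protein gene, held 43 and was also followed by 11.

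Some runs lay between same-strand peaks inside neighbouring gene bodies. A same-strand peak in a gene body lay within 10 kb on both sides of 66 runs (305 peaks), on the 5′ side alone of 193 (671 peaks), on the 3′ side alone of 93 (424 peaks) and on neither side of 641 (1370 peaks). The run of 13 peaks between Dppa4 and Dppa2, neighbouring genes of pluripotent cells, spanned 14825 bases on chromosome 16. The run of 14 between the autophagy gene Gabarapl2 and plus-strand peaks inside the Adat1 body spanned 5736 bases on chromosome 8, and that of 10 between Lsm2 and Vars 10212 bases on chromosome 17. Between Pou5f1, the gene of the pluripotency factor Oct4, and Tcf19, 4 plus-strand peaks lay 140 and 39 bases from the nearest peaks in the gene bodies. Tcf19 is a gene of the minus strand, and its 8 peaks were all on the plus strand, antisense to it. Near such runs, RNA that continues past 1 gene and RNA that begins before the next cannot be told apart from positions.

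Some runs began near a start site on the opposite strand, about as many as ended near a start site on their own strand. In 39 runs (144 peaks), of the 959 outside chromosome 18, the start site of a gene on the opposite strand lay within 1 kb before the run's first base, at a median of 601 bases, and 23 of these start sites belonged to bound genes. The largest of the 39 were the 31 peaks before Kat6b, 221 bases from the start site of Gm30363, and 20 peaks 649 bases from that of Gm31954; both had same-strand gene-body peaks on both sides. A further 4 runs, that of Top1 among them, had such peaks on the 5′ side alone, and 2 of the 39 also read on from a bound gene. A run just behind such a start site would be inside the gene and is no member, so this side is fixed by the choice of members. In 13 of the 39 the run had at least 2 peaks. The Top1 run, 33 bases from the start site printed above, had 12 peaks and the run from Ankrd10 had 9. The run from Opa3, a chromosome 7 gene for a mitochondrial protein, had 6, and that from Topbp1, a gene of the DNA damage response, 4. Rab8a, a small GTPase gene with no peak on its own strand, had a run of 13 peaks that began 369 bases from its start site. For comparison, 33 runs ended within 1 kb before a start site on their own strand, a number near the 39. Within 5 kb the counts were 117 for the opposite strand and 119 for the same strand, and within 100 bases 1 and 9. At Mtf2, a Polycomb gene on chromosome 5, 12 peaks (108061930 to 108065604) ended 56 bases before the gene.

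Counted over all their members, the lists of pluripotency, splicing factor and tRNA genes had the highest shares of genes with an intergenic peak within 50 kb. An intergenic peak lay within 50 kb of 4305 of 49554 genes (8.69%) and of 1323 of 5531 bound genes (23.9%). In the list of 20 pluripotency genes 9 had one (45%, 25.8 to 65.8%), with a median of 0 peaks, and in that of 21 splicing factor genes 11 had one (52.4%, 32.4 to 71.7%), with a median of 1. Since all 21 splicing factor genes and 12 of the 20 pluripotency genes were bound, the share in bound genes is the nearer comparison. Among bound members alone, 6 of 12 pluripotency, 11 of 21 splicing factor and 54 of 89 tRNA genes had one. For the other lists it was 73 of 149 snoRNA, 9 of 18 microRNA, 7 of 22 snRNA and 8 of 35 histone genes. On that count the pluripotency and splicing factor lists lay near the snoRNA and microRNA lists. Zfp42 led the pluripotency list with 16 peaks, 11 past its 3′ edge and 5 before its 5′ edge. Dppa5a had 7 nearby and none in its body, Pou5f1 had 6 and Mir290a had 2. Sox2, Esrrb, Sall4 and Tfcp2l1 held peaks in their bodies but had 0 within 50 kb outside genes.

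Among the splicing factor genes, Srsf1 had 10 peaks within 50 kb, Hnrnpc had 5, and Hnrnpa1 and Hnrnpa2b1 had 4 each. Runs read on from 6 of the 21, against 4.47% of bound genes. Among bound genes the share was 4.13% for those with 5 to 9 peaks, 6.94% for 10 to 19, 8.87% for 20 to 49 and 7.73% for 50 or more. Hnrnpc held 63 peaks and was followed by 5, Srsf3 held 25 and was followed by 4, and Hnrnpa2b1 held 19 and was followed by 3. Srsf5 was followed by 3, Srsf1 by 2 and Tra2a by 1. For the small RNA genes the shares were 10.7% of 1340 snoRNA genes, 7.38% of 1003 snRNA genes, 11.3% of 1228 microRNA genes and 49.8% of 408 tRNA genes. Histone genes had 14 of 67 (20.9%), with at most 4 peaks each. Neighbouring genes of a cluster share peaks in these counts: n-TAtgc10 and n-TDgtc15 on chromosome 5 had 11 each, and H2ac11 and H2bc11 on chromosome 13 had 4 each. The snRNA-type gene Gm25805 lay inside the run of 69 peaks before Usp7.

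The widest intergenic peaks were at a ribosomal RNA locus. Peaks of 1001 and 923 bases lay on the plus strand of chromosome 17 (39845001 to 39846001 and 39843641 to 39844563), forming a run that ended 353 bases before Rn18s-rs5, a gene related to 18S ribosomal RNA. Within 10 kb of that gene were 11 peaks, 4 of them plus-strand and 7 minus-strand, of which 7 were intergenic. Ribosomal RNA genes occur in many near-identical copies, and how reads that match several copies were placed is not given in the sources used here. The next widest, of 720, 681 and 673 bases, lay in the runs beside Katnal2, beside Gnasas1 and near Fam53a.

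The members farthest from any gene were isolated and narrow. The 5 farthest were runs of 1 peak with widths of 128, 45, 20, 24 and 23 bases on chromosomes 4, 18, 1, 5 and 15, and lay between 140814 and 506509 bases from the nearest gene body of any kind. Of 33 isolated peaks more than 50 kb from a gene body, 10 were under 50 bases (30.3%), against 65 of 2447 peaks in gene bodies with no same-strand peak within 10 kb (2.66%) and 95 of 56655 peaks in gene bodies overall (0.168%).

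The share of a chromosome's peaks that were intergenic was lowest on chromosome 11, at 2.90% (212 of 7320), and highest on chromosome 17, at 7.24% (190 of 2623). On chromosome 16, at 7.17%, the run before Usp7 gave 69 of 137 intergenic peaks, and on chromosome 5, at 5.98%, the run of 93 was the largest part of 275. Reading-on runs were found on each of the 20 chromosomes, from 4 on chromosome 14 to 22 on chromosome 5.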

How the data were processed

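The data are 1 list of peaks called by the authors from 2 DHX9-Rb and 2 IgG-Rb FLASH samples of mouse ES cells. Per the file's source column the caller was PEAKachu. For its version, its settings and its use of the IgG samples the sources used here give nothing. The submitters' processing notes name Bowtie2 2.2.6 and the builds hg19 and mm10, and the chromosome and scaffold names of the list are those of mm10. The deposited list gives other values than expression: the first and last base of each peak, 1-based, and its strand. Its score field is empty for every peak. Depth per sample is unknown, and the samples cannot be separated within the list.

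Gene bodies came from a RefSeq table of GRCm38.p6, which has no strand. A gene's strand was taken from the RefSeq promoter and microRNA sequence tables (4084 bound genes), otherwise from the strand of at least 90% of its peaks (1447 bound genes, among them all on chromosome 18). Of 2117 genes with at least 5 peaks and both strands known, the strands were the same in 96.6%. Genes with fewer peaks were not in this comparison, though a strand could be read from 1 peak. Distances run between the edges of runs and gene bodies, and each run was assigned to its nearest bound gene. Intervals are 95% Wilson intervals. The genome sequence was not used here, so repeats and the bases under most peaks were not examined.

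The runs and genes named were the 10 runs with the most peaks, the 10 longest, the 5 genes with the most peaks reading on from them, the 5 widest peaks, the 5 runs farthest from a gene body, and up to 4 leading members of each gene list. The members and lists were chosen with earlier results of these data known. The descriptions of microRNA genes, of start sites on the opposite strand, of runs between genes, of the ribosomal RNA locus, and of other named genes were picked with their values in view. The steps that join runs and place them were tested on simulated data. Python 3.11.15, pandas 2.3.3, numpy 2.4.6 and scipy 1.17.1 were used. The alternatives tried were other gap and distance limits, merging of close peaks, wider peaks, other gene sets, other definitions of a bound gene and of its strand, and leaving out chromosomes 8 and 11.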

Additional observations from a re-analysis of the deposited data

Results flagged for a closer look

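Outside the chromosomes described above, 28 peaks on chromosome Y lay in no gene body, of 80 peaks on that chromosome. They were picked out because they lie in data that no comparison used. WT26 is a male line, and the list holds no separate level for the IgG samples, so these peaks cannot be set against the control.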

How the results depend on the processing

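Of 28 alternatives, 20 left a share or the median width within its 95% counting interval, or the number of runs within 1.5 times, and the other 8 moved a share out of its interval. The intergenic share of 4.66% was 4.02% when narrower than median peaks were left out, 5.05% without chromosomes 8 and 11 and 7.11% without predicted genes, model genes and pseudogenes. The share of runs reading on, 24.9%, was 20.04% with bound genes of at least 3 peaks, 17.9% with at least 5, 29.6% with a limit of 50 kb and 35.6% when narrower than median peaks were left out. It was 39.0% over runs of at least 2 peaks, an alternative chosen after seeing the data. The number of runs lay between 931 and 1018 and the median width between 179 and 184 bases under every alternative run for them. No paired analysis was possible because the list pools the replicates, and for the same reason no replicate could be left out. The list has no depth, so the count of reads behind a peak sets no limit that can be stated.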
